A study of Mus musculus with 13 samples.

Results

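Matrix metalloproteinases (MMPs), the related ADAMTS proteases, the ADAMTS-like proteins and the tissue inhibitors of metalloproteinases (TIMPs) were followed in RNA sequencing data from mouse left ventricle. The family was taken by gene symbol from the deposited count table, and 51 of its 36172 gene entries matched: 23 Mmp, 19 Adamts, 5 Adamtsl and 4 Timp genes. Of these, 38 had enough reads to be tested. The 13 libraries came from mice of strain C57BL/6JO1aHsd aged 8 to 10 weeks when treatment began. In 3 mice the surgery was a sham and no antibody was given. In the other groups the left anterior descending coronary artery (LAD) was permanently ligated, which causes a myocardial infarction (MI), and 5 mice then received a control IgG and 5 received FG-3149, a mouse monoclonal antibody against connective tissue growth factor (CTGF). Both antibodies were dosed at 10 mg/kg. The time point of all groups is given as 1W+6W, with no further explanation. The tissue is labelled as ventricle outside the ischaemic zone, and whether border or scar tissue was carried along was not tested. Sham mice differed from the IgG group in both ligation and IgG, whose effects cannot be told apart.

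MMPs are zinc-dependent enzymes that cleave collagens, gelatin, proteoglycans and other matrix proteins, and most are made as inactive precursors. ADAMTS proteases carry thrombospondin repeats and cut a narrower range of matrix proteins, among them versican, procollagens and von Willebrand factor. ADAMTS-like proteins share those repeats and lack the catalytic domain, and TIMPs bind to the active site of the proteases and block it. In the heart, these genes are expressed largely by fibroblasts, vascular cells and infiltrating leukocytes, and they take part in matrix turnover after infarction. Because enzyme activity depends on activation and inhibition of the proteins, transcript levels do not measure proteolysis.

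Sham libraries held 12025880 to 14999813 estimated counts each, IgG libraries 13084735 to 17567238 and FG-3149 libraries 10954922 to 12794823. The family took 0.099 to 0.104% of the counts in sham libraries, 0.139 to 0.176% in IgG libraries and 0.128 to 0.152% in FG-3149 libraries. The share of the ribosomal precursor Rn45s lay between 0.276 and 0.334% in sham libraries, 0.673 and 1.936% in IgG libraries, and 0.199 and 2.858% in FG-3149 libraries, and its part in the results was not tested. Marker genes of ventricular cardiomyocytes summed to 68390 to 87580 CPM (counts scaled to the library total) over all libraries, so the defining cells of the labelled tissue were present in each. Ctgf mRNA was 7.64-fold higher in the IgG group than in sham (edgeR adjusted p = 1.25e-05) and did not pass that test between FG-3149 and IgG (adjusted p = 0.394). The antibody acts on the protein, so this transcript does not check the treatment labels. IgG replicate 2 had the highest level of its group in 22 of the 38 tested family members (57.9%), against 23.0% of all tested genes. Without it, 19 members were called between IgG and sham, 14 higher and 5 lower, beside 17 with it.

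Detection differed sharply along the family. A cluster of 10 MMP genes lies on chromosome 9 between positions 7272514 and 7699416 (mm10). Only Mmp3, Mmp12 and Mmp13 of that cluster passed the filter on low counts, while Mmp1a, Mmp1b, Mmp7, Mmp10 and Mmp20 had no count in any library. Mmp8, the neutrophil collagenase, had 15 counts and Mmp27 had 23 counts over all 13 libraries. The other members that were not tested were Adamts13 (total count 3), Adamts18 (5), Mmp21 (5), Adamts16 (20), Mmp25 (48) and Adamts19 (90). A count of 0 allows up to 0.274 CPM in the shallowest library and 0.171 CPM in the deepest. The sources used here do not state how reads with several matches were counted, which could matter for related genes such as Mmp1a and Mmp1b.

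The bases just upstream of the transcription start separate the cluster from the rest of the family, and 6 cluster genes are shown for that reason, 3 that were tested and 3 with no count. Sequences are from RefSeq, build GRCm38.p6, and 36 of the 51 members had an entry. Each stretch is the 110 bases before the start, 5′ to 3′ in the direction of the gene, and all 6 genes lie on the plus strand: Mmp3 at chr9:7445712-7445821, Mmp12 at chr9:7347264-7347373, Mmp13 at chr9:7272404-7272513, Mmp1a at chr9:7464031-7464140, Mmp7 at chr9:7691980-7692089 and Mmp10 at chr9:7502232-7502341. Capitals mark matches to TGANTCA, the core of the AP-1 motif, and to TATAAA, the core promoter element that binds TBP, searched on both strands.
Mmp3: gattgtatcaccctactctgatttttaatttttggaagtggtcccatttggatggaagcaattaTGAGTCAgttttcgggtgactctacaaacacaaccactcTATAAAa
Mmp12: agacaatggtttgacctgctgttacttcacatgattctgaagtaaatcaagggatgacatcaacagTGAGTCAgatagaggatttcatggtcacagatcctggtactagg
Mmp13: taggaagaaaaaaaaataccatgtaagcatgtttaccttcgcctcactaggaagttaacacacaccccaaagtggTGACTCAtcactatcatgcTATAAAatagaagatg
Mmp1a: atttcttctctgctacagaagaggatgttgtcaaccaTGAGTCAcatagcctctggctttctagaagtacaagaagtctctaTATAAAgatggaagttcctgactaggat
Mmp7: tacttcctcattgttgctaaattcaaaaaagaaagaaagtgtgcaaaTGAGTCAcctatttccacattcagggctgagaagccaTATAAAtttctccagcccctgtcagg
Mmp10: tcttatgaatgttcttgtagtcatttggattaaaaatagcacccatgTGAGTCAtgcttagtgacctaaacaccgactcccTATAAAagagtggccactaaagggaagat
Within 250 bases upstream, TGANTCA was present at a start of 8 of the 10 cluster genes (not in Mmp8 or Mmp27) and of 0 of the 26 other members with an entry. Some genes have more than 1 start in the table, so counted by window it was present in 8 of 12 cluster windows and 0 of 27 others, against 6.75% of all 32851 windows. The second start windows of Mmp7 and Mmp12, not shown, had none of the letters searched. TATAAA was found in 7 of the 12 cluster windows and 3 of the 27 others (Adamts1, Adamtsl2 and Mmp21), against 12.4% of all windows. A match is a description of these letters and does not show that a factor binds there. Genes with both motifs were found among those with reads (Mmp3, Mmp13) and among those with no count (Mmp1a, Mmp7, Mmp10).

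The genes with the 2 largest fold increases with IgG against sham, Timp1 and Adamtsl2, had no TGANTCA in the 250 bases before the start. Those bases are given for comparison. Timp1 is at chrX:20869916-20870165 and Adamtsl2 at chr2:27079129-27079378, both on the plus strand. Capitals mark CATTCC, the core of the TEAD motif, which the Timp1 stretch holds on its other strand as GGAATG, and TATAAA in Adamtsl2. CATTCC was present in 12.6% of all windows, in 0 of the 12 cluster windows and in 2 of the 27 others, those of Timp1 and Adamts13.
Timp1: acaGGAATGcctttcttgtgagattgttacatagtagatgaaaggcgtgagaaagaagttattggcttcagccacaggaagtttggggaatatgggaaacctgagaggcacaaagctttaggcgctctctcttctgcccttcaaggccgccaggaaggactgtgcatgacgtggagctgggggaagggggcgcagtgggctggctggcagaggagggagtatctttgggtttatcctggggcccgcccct
Adamtsl2: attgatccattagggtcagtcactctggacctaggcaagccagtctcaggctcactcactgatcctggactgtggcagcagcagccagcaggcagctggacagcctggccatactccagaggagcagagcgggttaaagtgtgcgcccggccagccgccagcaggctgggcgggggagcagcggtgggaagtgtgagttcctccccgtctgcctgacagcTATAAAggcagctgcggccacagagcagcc

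Levels of different genes can be compared only per transcript length, as RPKM, which scales reads to transcript length and library total. On that scale Timp3 ranked first of 37 tested members in every group (Mmp24 is left out, for the reason given with the sums), with 42.0 ± 3.17 RPKM (SD, n = 3) in sham, 94.4 ± 13.3 (n = 5) with IgG and 73.7 ± 17.8 (n = 5) with FG-3149. The next ranks in sham were held by Adamtsl5 at 38.6 ± 1.39, Mmp15 at 34.3 ± 1.68, Timp2 at 30.9 ± 1.65 and Mmp2 at 20.9 ± 0.493 RPKM, and those of Timp3 and Adamtsl5, and of Mmp15 and Timp2, were separated by little more than their SDs. After infarction with IgG, Timp2 (60.2 ± 10.2 RPKM) held rank 2, Adamtsl5 (53.5 ± 4.66) rank 3 and Mmp2 (44.6 ± 7.57) rank 4, and the SDs of those neighbours overlapped. Timp1 held rank 26 in sham, rank 8 in the IgG group and rank 10 in the FG-3149 group, and Adamtsl2 went from rank 18 to rank 7 in both infarcted groups. The 4 TIMPs summed to 84.98 to 93.40 RPKM in sham libraries and to 166.3 to 218.2 with IgG, while the MMPs other than Mmp24 summed to 75.40 to 81.29 in sham and 97.51 to 131.1 with IgG. In the FG-3149 libraries the sums were 140.6 to 185.9 for TIMPs and 87.00 to 105.4 for MMPs. Mmp24, a membrane-type MMP, is listed at 0 RPKM in 4 libraries although every library had at least 97 counts of it, so its RPKM value entered neither the ranks nor the sums.

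**Figure D1:**
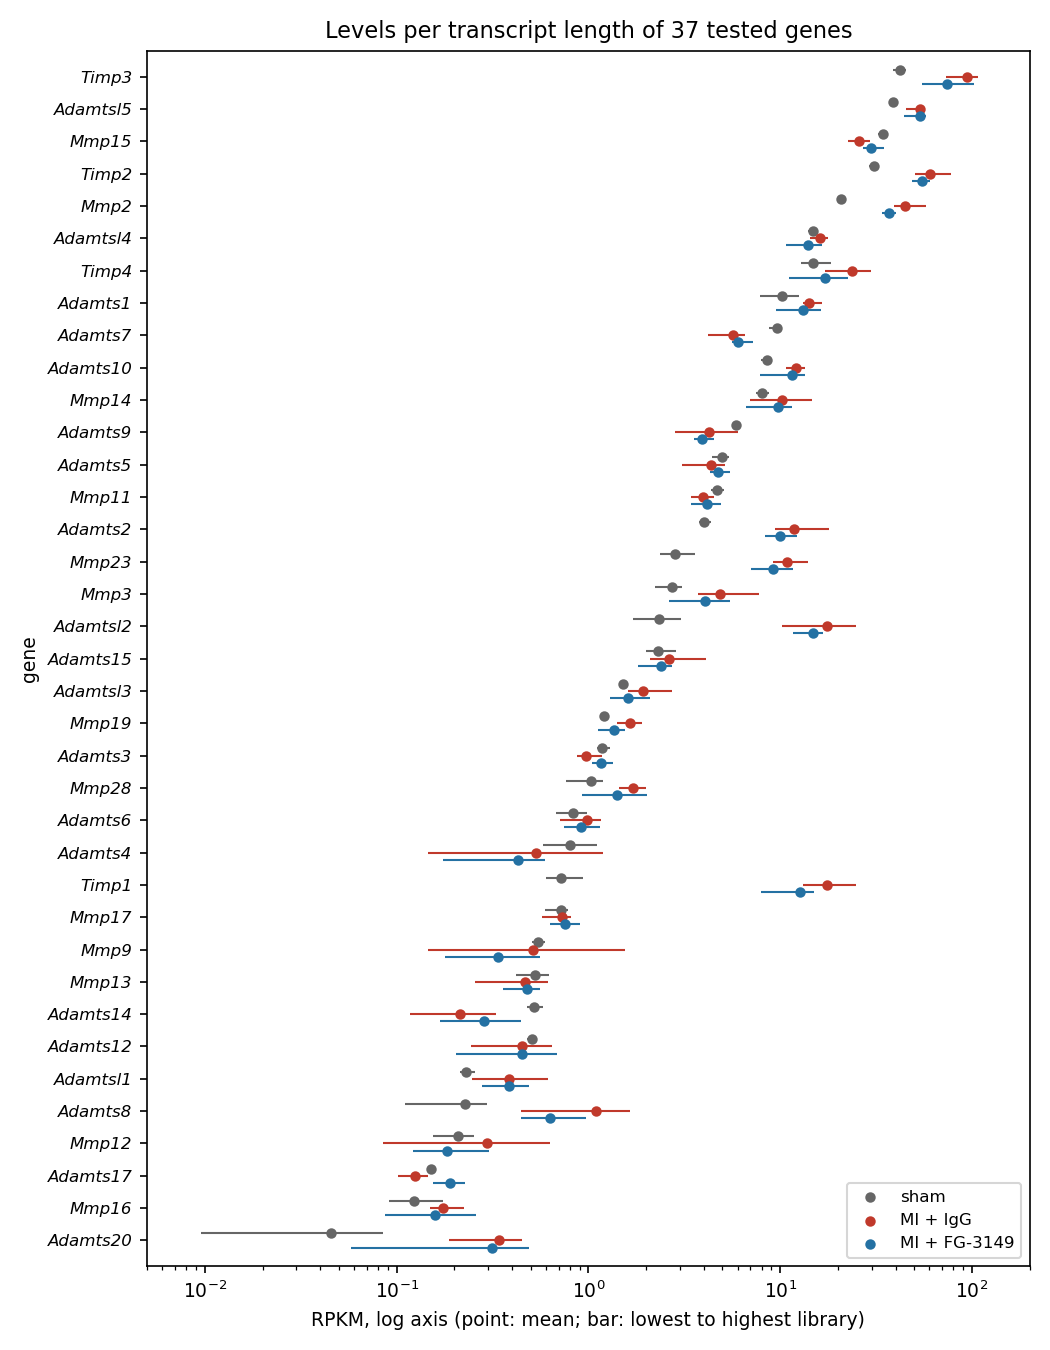
Levels of 37 tested family members in RPKM on a log axis, ordered by the sham mean, with a point for the mean and a bar from the lowest to the highest library for the 3 sham, 5 IgG and 5 FG-3149 libraries. Timp3 is highest in every group, and the bars of Timp1 and Adamtsl2 in the infarcted groups lie to the right of their sham bars with no overlap.

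The first comparison asked which family members changed in non-ischaemic ventricle after infarction with control IgG. Of the 38 tested members, 17 passed the test, 14 higher and 3 lower than sham, a share of 44.7% against 33.7% of all 13434 tested genes (edgeR quasi-likelihood test, Benjamini-Hochberg adjusted p under 0.05 over all genes). The higher share was 36.8% against 17.8% of all genes, and the lower share 7.89% against 15.9%. In 21 of the 38, no IgG library lay within the sham range or the reverse, 55.3% against 35.8% of all genes. At an unadjusted p under 0.05 there were 24 members, 63.2% against 43.5% of all genes. The median log2 fold change over the 38 was 0.39, and over all tested genes it was -0.00. In whole tissue, a change in the number of cells of a type and a change in RNA per cell cannot be told apart.

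Of the 4 inhibitors, all tested, 3 rose with IgG and none was called lower. Over all tested genes, 33.7% were called and 17.8% were called higher. Timp1, which inhibits most soluble MMPs and is readily induced in injured tissue, had 0.556, 0.542 and 0.8287 CPM in the sham libraries, 11.5, 21.9, 15.6, 13.4 and 14.5 with IgG, and 10.5, 13.0, 12.8, 7.26 and 13.3 with FG-3149. Every infarcted library was thus above every sham library, and the sham values rested on 25 counts in all. Timp1 rose 24-fold with IgG (95% confidence interval 14.6 to 39.4, log2 4.58, SE 0.34, edgeR adjusted p = 4.08e-07). The limma value on log2(RPKM + 1), a scale that compresses low levels, was 3.40. Timp1 is Entrez gene 21857 on chromosome X at 20870166 to 20874737, plus strand.

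Timp3, which binds to the matrix and also inhibits ADAM and ADAMTS proteases, had 181, 215 and 195 CPM in sham, 338, 440, 437, 468 and 507 with IgG, and 314, 306, 265, 372 and 486 with FG-3149. All infarcted libraries lay above sham, and the 2 infarcted groups overlapped. Timp3 rose 2.22-fold with IgG (1.66 to 2.98, adjusted p = 0.000906 in edgeR). Timp2, an inhibitor that also takes part in the activation of pro-MMP2 by membrane-type MMPs, had 117, 107 and 112 CPM in sham, 179, 277, 207, 200 and 217 with IgG, and 214, 202, 227, 181 and 179 with FG-3149. It rose 1.93-fold with IgG (1.61 to 2.31, edgeR adjusted p = 5.80e-05), with no overlap with sham. Timp4, known for its high expression in the heart, had 18.3, 26.5 and 18.1 CPM in sham, 41.6, 29.4, 42.4, 23.6 and 29.3 with IgG, and 19.4, 24.8, 16.2, 32.6 and 30.0 with FG-3149. Its IgG and sham libraries overlapped and it did not pass (1.58-fold, 1.05 to 2.37, edgeR adjusted p = 0.0817), whereas DESeq2 gave an adjusted p of 0.0446.

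Timp1, Timp3 and Timp4 each lie inside a synapsin gene on the opposite strand (Syn1, Syn3 and Syn2), and whether counting used the strand is not stated in those sources. Syn1 was at 0.159 to 0.414 CPM in sham and 0.295 to 0.860 with IgG, far below Timp1 with IgG. With FG-3149, Syn1 was at 0.427 to 2.09 CPM, below every Timp1 value of that group, and was called higher than sham (edgeR adjusted p = 0.0340). Syn3 stayed at 1.73 to 3.99 CPM over all libraries, far below Timp3. Syn2 was at 2.38 to 3.59 CPM in sham and 3.70 to 6.48 with IgG and passed the test (log2 0.77, SE 0.24, edgeR adjusted p = 0.0194). Counted by exon, all 6 Timp1 exons with at least 50 reads, and all 5 of Timp2, Timp3 and Timp4 each, had a higher mean with IgG than in sham.

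**Figure D2:**
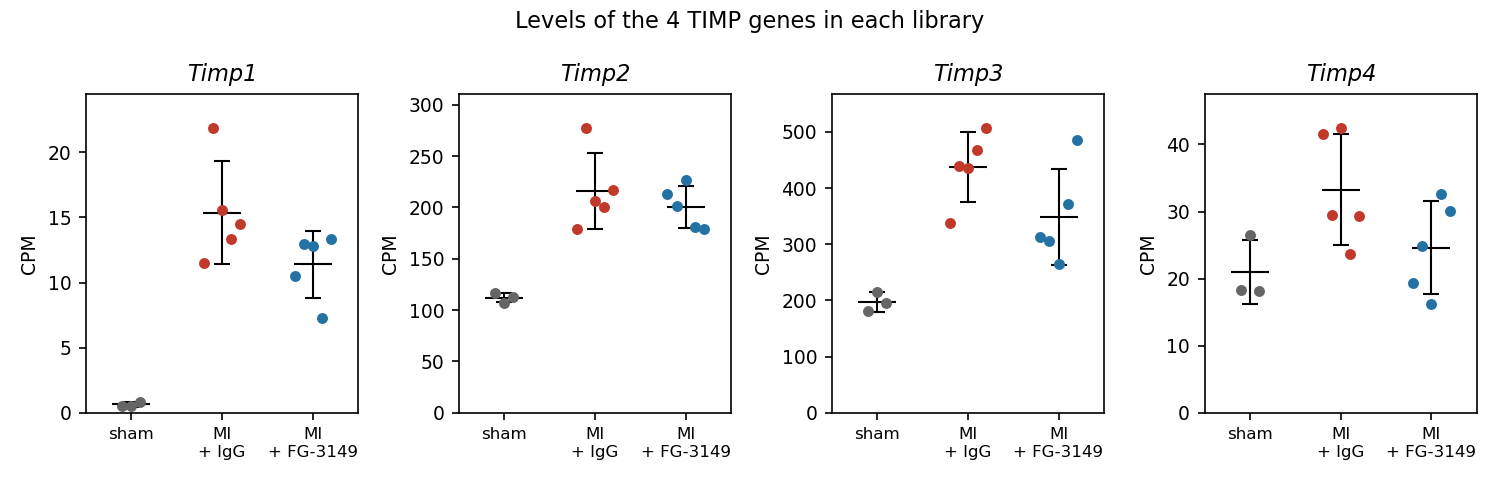
CPM of Timp1, Timp2, Timp3 and Timp4 in each library (points) of sham, MI with IgG and MI with FG-3149, with the mean and SD (bars). All infarcted libraries lie above sham for Timp1, Timp2 and Timp3, and the groups overlap for Timp4.

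Among the 14 tested MMPs, 5 rose and 1 fell with IgG (42.9% called, against 33.7% of all tested genes). Mmp2, the gelatinase that is made constitutively by fibroblasts, had 61.8, 64.0 and 64.9 CPM in sham, 117, 174, 124, 123 and 134 with IgG, and 120, 119, 116, 105 and 106 with FG-3149. Sham libraries were close together and every infarcted library was higher. Mmp2 rose 2.12-fold (1.81 to 2.48, edgeR adjusted p = 3.95e-06), and all 13 of its exons had a higher mean with IgG. Mmp9, the gelatinase of neutrophils and macrophages, had 1.59, 1.90 and 1.66 CPM in sham, 4.79, 0.788, 0.688, 1.24 and 0.461 with IgG, and 1.11, 1.15, 1.82, 0.744 and 0.569 with FG-3149. IgG replicate 1 stood above all other libraries and the remaining 4 IgG libraries below all sham libraries, so the 2 gelatinases did not move together. Mmp9 did not pass with all libraries (edgeR adjusted p = 0.880), and without IgG replicate 1 it was called lower (adjusted p = 0.0216).

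Mmp23, a small transmembrane MMP that is released by cleavage, had 3.66, 3.45 and 5.14 CPM in sham, 13.0, 19.8, 14.5, 14.0 and 15.5 with IgG, and 16.8, 13.6, 12.2, 10.3 and 13.7 with FG-3149. The infarcted libraries did not overlap with sham, and the rise was 3.79-fold (2.90 to 4.95, edgeR adjusted p = 1.01e-06), the largest fold among the MMPs. Smaller rises were called for Mmp3 (stromelysin 1, 1.74-fold, edgeR adjusted p = 0.0338), Mmp28 (epilysin, 1.63-fold, 0.0223) and Mmp19 (1.36-fold, 0.0382). These 3 calls were lost in some settings: Mmp3 without any of the sham libraries in turn, without IgG replicate 5 or with no filter on low counts (adjusted p 0.0516 to 0.135), Mmp28 without sham replicate 1 (0.127) or IgG replicate 3 (0.0513), and Mmp19 in 8 settings (0.051 to 0.117), DESeq2 among them. Mmp19 overlaps Tmem198b on the opposite strand, at 7.23 to 7.54 CPM in sham and 8.28 to 9.37 with IgG. Tmem198b did not pass with IgG (edgeR adjusted p = 0.115).

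The MMP that fell was Mmp15, the membrane-type MMP also called MT2-MMP and the most highly expressed MMP in sham per length. It had 151, 141 and 149 CPM in sham, 123, 110, 112, 102 and 97.3 with IgG, and 122, 123, 153, 118 and 129 with FG-3149. All IgG libraries lay below sham, and Mmp15 fell by 0.43 on the log2 scale (SE 0.08, edgeR adjusted p = 0.000521). All 10 of its exons were lower. None of the other 4 tested membrane-type MMPs passed. Mmp14 (MT1-MMP), the activator of pro-MMP2, had 20.3, 19.8 and 22.7 CPM in sham and 29.6, 37.8, 23.4, 22.4 and 18.1 with IgG, overlapping (log2 0.34, SE 0.24, edgeR adjusted p = 0.299). Mmp24 ran from 8.03 to 8.47 CPM in sham and 9.01 to 10.99 with IgG, with no overlap and adjusted p = 0.0632 in edgeR. Of its 9 exons, 0 had at least 50 reads. It overlaps BC029722 on the opposite strand, at 20.72 to 25.44 CPM in sham and 26.36 to 32.88 with IgG. BC029722 was called higher with IgG (log2 0.38, SE 0.09, edgeR adjusted p = 0.00256). Whether reads of BC029722 were counted for Mmp24 was not tested. Mmp11 (stromelysin 3), Mmp12 (macrophage elastase), Mmp13 (the main collagenase of rodents), Mmp16 and Mmp17 did not pass, and Mmp12, Mmp13 and Mmp16 stayed at or below 2.25 CPM in every library.

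Of the 15 tested ADAMTS genes, 4 were called higher and 2 lower with IgG. That share of 40.0% was near the 33.7% of all tested genes, of which 17.8% were higher and 15.9% lower. The 3 procollagen N-propeptidases, which trim fibrillar procollagens so that fibrils can form, did not move together. Adamts2 had 14.5, 14.4 and 16.2 CPM in sham, 34.6, 66.4, 40.5, 38.1 and 39.7 with IgG, and 46.1, 42.2, 34.8, 32.8 and 31.9 with FG-3149. All infarcted libraries were above sham, and IgG replicate 2 stood apart at the top. Adamts2 rose 2.93-fold (2.08 to 4.13, edgeR adjusted p = 0.000300), over all 21 exons with enough reads. Adamts14 had 2.46, 3.05 and 2.57 CPM in sham, 0.871, 1.69, 1.43, 0.884 and 0.615 with IgG, and 2.31, 2.14, 1.001, 1.116 and 0.894 with FG-3149. All infarcted libraries were below sham, and Adamts14 fell by 1.26 on the log2 scale with IgG (SE 0.32, edgeR adjusted p = 0.00569). Adamts3 lay at 8.35 to 9.78 CPM in sham and 6.42 to 8.84 with IgG and did not pass (log2 -0.29, SE 0.12, edgeR adjusted p = 0.0748).

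Of the 7 ADAMTS genes grouped as proteoglycan-cleaving, 2 rose, both from very low levels (28.6% called, against 33.7% of all tested genes). Adamts8 had 0.397, 1.02 and 1.08 CPM in sham, 1.60, 4.45, 2.87, 4.83 and 5.99 with IgG, and 1.62, 2.06, 1.91, 2.42 and 3.58 with FG-3149. Every infarcted library was above sham, with IgG replicate 1 and FG-3149 replicate 1 the nearest to it. Adamts8 rose 4.68-fold with IgG (2.46 to 8.89, edgeR adjusted p = 0.00105), and its sham level rested on 33 counts. Adamts20 had 0.238, 0.0677 and 0.332 CPM in sham, 0.726, 2.20, 1.20, 1.53 and 1.61 with IgG, and 2.22, 1.53, 0.364, 1.58 and 1.22 with FG-3149. The groups did not overlap, though sham held 8 counts in all and FG-3149 replicate 3 lay just above it. Adamts20 rose 6.93-fold with IgG (2.96 to 16.2, edgeR adjusted p = 0.00128), and limma gave a log2 value of 0.36 on log2(RPKM + 1) for this low gene.

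The more abundant proteoglycan-cleaving genes did not pass. Adamts1, which cleaves versican, had 37.8, 62.1 and 49.97 CPM in sham and 65.8, 64.9, 81.0, 65.8 and 64.6 with IgG. The groups did not overlap (1.37-fold, edgeR adjusted p = 0.0694). It passed in DESeq2 (adjusted p = 0.0150) and in 4 other settings. Adamts5, an aggrecanase, had 36.5 to 43.6 CPM in sham and 25.1 to 41.2 with IgG (adjusted p = 0.252 in edgeR). Adamts4, the other aggrecanase, had 2.62, 2.17 and 4.06 CPM in sham, 2.69, 4.34, 0.917, 1.18 and 0.538 with IgG and 2.14, 2.14, 2.002, 0.651 and 0.976 with FG-3149, a wide spread within both infarcted groups. Adamts9 had 35.8, 35.7 and 35.7 CPM in sham and 30.7, 36.0, 21.1, 22.1 and 17.2 with IgG, overlapping through IgG replicate 2 alone (log2 -0.49, SE 0.18, edgeR adjusted p = 0.0592). Without that library the adjusted p was 0.00211. Adamts15, whose gene lies 20111 bases from Adamts8 on chromosome 9, lay at 11.8 to 16.8 CPM in sham and did not pass, with 24.6 CPM in IgG replicate 5 and 12.3 to 14.7 in the other IgG libraries.

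Adamts7, a protease of cartilage oligomeric matrix protein (COMP), had 53.0, 47.2 and 53.5 CPM in sham, 31.2, 22.2, 29.0, 33.9 and 33.9 with IgG, and 30.3, 29.4, 31.5, 31.9 and 39.4 with FG-3149. All infarcted libraries lay below sham. Adamts7 fell by 0.77 on the log2 scale (SE 0.12, edgeR adjusted p = 0.000137), and all 24 of its exons were lower. Adamts12, which also cleaves COMP, did not pass, with 3.05 to 3.31 CPM in sham and 1.54 to 3.998 with IgG. Comp itself, at 0.203 to 0.8287 CPM in sham, was at 73.9 to 200.5 CPM with IgG. Adamts10, which binds fibrillin microfibrils, had 31.9, 35.1 and 36.8 CPM in sham and 43.1, 49.9, 44.5, 53.0 and 54.2 with IgG, without overlap, and rose 1.41-fold (edgeR adjusted p = 0.00903, and 0.0512 without sham replicate 1).

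Of the 5 ADAMTS-like genes, all tested, 2 rose (40.0% called, near the 33.7% of all tested genes). Adamtsl2, which binds fibrillin and latent TGF-β binding protein, had 5.49, 7.52 and 9.78 CPM in sham, 32.8, 80.0, 61.3, 49.0 and 59.4 with IgG, and 54.2, 51.2, 44.1, 38.4 and 54.0 with FG-3149. All infarcted libraries were above sham, and within the IgG group replicate 1 was lowest and replicate 2 highest. Adamtsl2 rose 7.47-fold (4.63 to 12.1, edgeR adjusted p = 5.42e-05), over all 19 exons, while its neighbour Adamts13, which lies 69756 bases away, had 3 counts in all libraries together. Adamtsl5, a secreted protein that binds fibrillin, had 71.3, 72.7 and 71.1 CPM in sham, 87.3, 98.8, 103, 107 and 112 with IgG, and 105, 106, 88.6, 113 and 117 with FG-3149. The sham values lay close together, and the rise was 1.42-fold without overlap (adjusted p = 0.000197 in edgeR). Adamtsl1 (adjusted p = 0.0566 in edgeR), Adamtsl3 (0.137) and Adamtsl4 (0.468) did not pass.

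**Figure D3:**
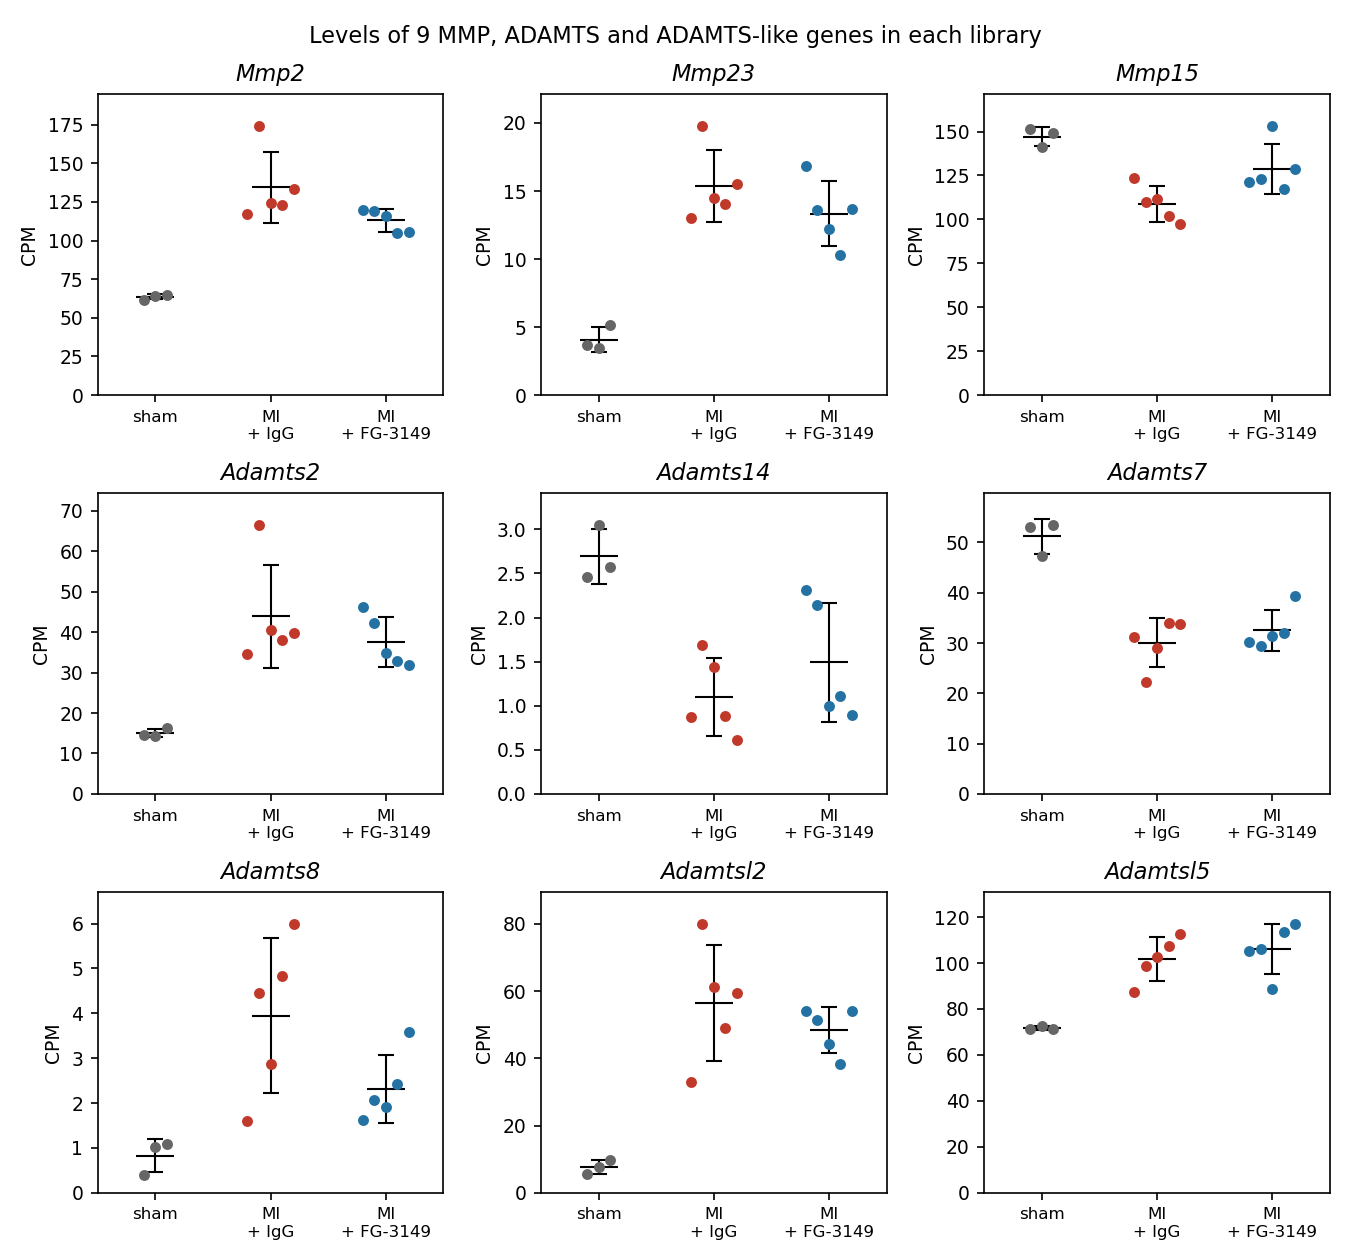
CPM of 9 MMP, ADAMTS and ADAMTS-like genes in each library (points) of sham, MI with IgG and MI with FG-3149, with the mean and SD (bars). Mmp2, Mmp23, Adamts2, Adamts8, Adamtsl2 and Adamtsl5 are higher and Adamts14 and Adamts7 lower in every infarcted library than in every sham library, and Mmp15 is lower in every IgG library.

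Genes around the family were counted from lists of regulators, other matrix proteases and substrates. Of 16 tested regulators and activators, 5 rose and 1 fell with IgG in edgeR, 37.5% called against 33.7% of all genes, which is near that background. Among them, Thbs1, a matrix glycoprotein that binds MMPs, rose 6.26-fold, Lrp1, a clearance receptor for proteases and inhibitors, 2.06-fold, and Reck, a membrane inhibitor of MMPs, 1.83-fold. Furin, which activates many of these precursors, was the gene that fell. Of 22 tested other matrix proteases and their helpers, 11 rose and 1 fell (54.5% called). They included the collagen-degrading cathepsin Ctsk (3.23-fold, edgeR adjusted p = 7.92e-07) and the procollagen processing enhancer Pcolce2 (2.28-fold, adjusted p = 2.24e-06). Of 19 tested substrates and binding partners, 14 rose and none was called lower (73.7% called), among them the proteoglycan genes Bgn (4.45-fold) and Vcan (2.46-fold).

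Marker genes of several cell types moved with the same contrast. Of 10 markers of activated fibroblasts 9 rose with IgG, and their sum ran from 105.2 to 114.6 CPM in sham libraries, from 1020 to 1955 in IgG libraries and from 655.1 to 951.2 in FG-3149 libraries. Of 10 markers of resting fibroblasts 8 rose and 1 fell (2347 to 2499, 3269 to 4328 and 3251 to 3771 CPM in the same order). Of 9 macrophage markers 7 rose (344.0 to 351.9, 459.6 to 712.9 and 487.0 to 797.7 CPM). All 5 tested markers of cartilage and valve rose, Comp among them, with a sum of 3.116 to 4.144 CPM in sham libraries, 118.0 to 320.3 in IgG libraries and 79.43 to 248.3 in FG-3149 libraries. Of 8 smooth muscle and pericyte markers 3 rose and 1 fell (1238 to 1273, 866.7 to 1035 and 906.0 to 1058 CPM). Of 8 endothelial markers 1 rose and 2 fell (1302 to 1426, 1056 to 1355 and 1158 to 1228 CPM), and of 8 ventricular cardiomyocyte markers 4 fell (78380 to 87580, 68390 to 75070 and 72010 to 78730 CPM). None of the 4 tested neutrophil markers passed, with Ly6g and Elane at 0 in every library and a sum of 10.21 to 19.59 CPM over all libraries. Of 3 tested atrial cardiomyocyte markers 1 rose, Nppa (sums 110.6 to 132.4, 1541 to 3536 and 1147 to 2774 CPM in sham, IgG and FG-3149 libraries). Of 5 tested mesothelium markers 0 passed (4.372 to 5.801, 4.071 to 16.26 and 4.373 to 50.86 CPM), with FG-3149 replicate 3 the highest. The part of these cell types in the changes of the family was not tested.

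**Figure D4:**
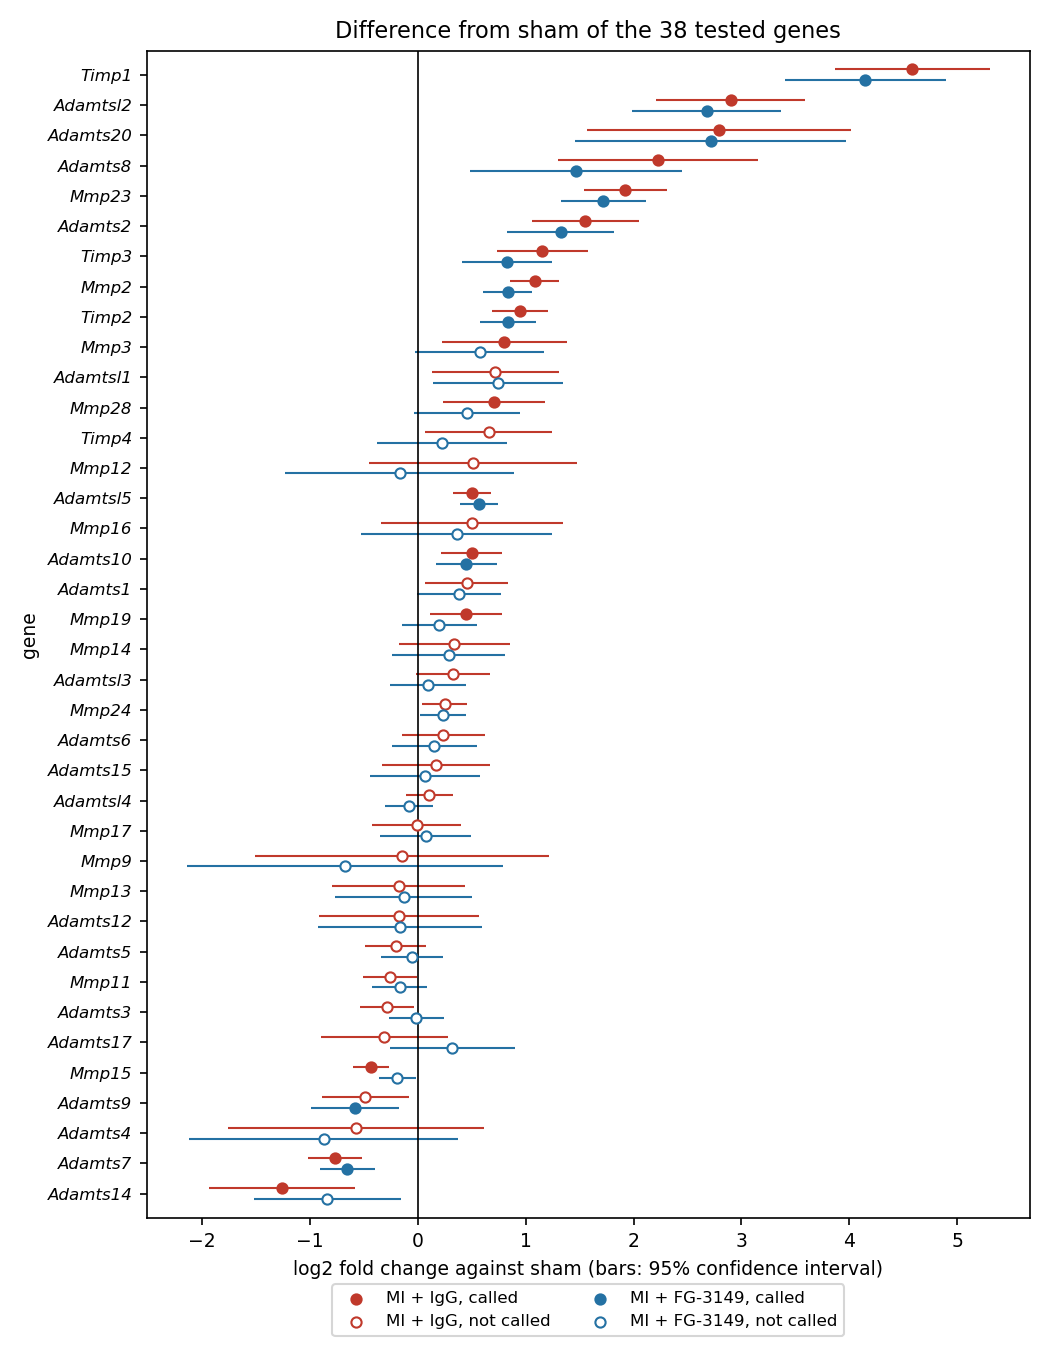
Log2 fold changes against sham of the 38 tested family members with 95% confidence intervals (bars), for MI with IgG and MI with FG-3149, filled where called by edgeR at an adjusted p under 0.05. Timp1, Adamtsl2, Adamts20, Adamts8, Mmp23 and Adamts2 lie furthest to the right in both infarcted groups, and Adamts14 and Adamts7 furthest to the left with IgG.

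The second comparison asked whether the CTGF antibody changed the family after infarction. No member passed the test between FG-3149 and IgG, 0 of 38 in edgeR against 1.07% of all tested genes (144 of 13434, 0.916% higher and 0.156% lower), and 0 in DESeq2 and in limma. At an unadjusted p under 0.05 there were 6 members, 15.8% against 13.8% of all genes: Timp1, Mmp2 and Adamts8 lower, and Mmp15, Adamts3 and Adamts17 higher with FG-3149. Fitted values were below 0 for 26 of the 38 members and for 7266 of all 13434 tested genes. The median log2 fold change was -0.10 over the members and -0.01 over all tested genes. Of the 38 members, 16 changed sign in some setting. A p above the threshold does not show that the groups were alike, and the intervals below give the differences that remain possible.

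Mmp15 had the smallest p of the family, with 110, 112, 102 and 97.3 CPM in IgG replicates 2 to 5, 123 in replicate 1, and 118 to 153 with FG-3149, overlapping. It was 1.18-fold higher with FG-3149 (1.07 to 1.31, edgeR adjusted p = 0.117). Without IgG replicate 1 it was the only member called (edgeR adjusted p = 0.0306). With all libraries, its mean of 129 ± 14.2 CPM with FG-3149 lay between the IgG mean of 109 ± 10.1 and the sham mean of 147 ± 5.42. Mmp2 was at 0.841 of its IgG level (0.738 to 0.958, edgeR adjusted p = 0.215). Its FG-3149 libraries, at 105 to 120 CPM, overlapped only with IgG replicate 1 at 117.

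Timp1 was at 0.741 of its IgG level with FG-3149 (0.571 to 0.961, edgeR adjusted p = 0.291), and the groups overlapped between 11.5 and 13.3 CPM. Timp3 was at 0.796 of its IgG level (0.625 to 1.01, edgeR adjusted p = 0.394) and Timp4 at 0.740 (0.523 to 1.05, adjusted p = 0.436). Adamts8 was at 0.590 of its IgG level (0.372 to 0.937, edgeR adjusted p = 0.294), with FG-3149 libraries between 1.62 and 3.58 CPM inside the IgG range of 1.60 to 5.99. Adamts3 was 1.21-fold higher with FG-3149 (1.03 to 1.41, adjusted p = 0.254 in edgeR). Adamtsl2 was at 0.856 of its IgG level (0.618 to 1.19, edgeR adjusted p = 0.705) and Adamts2 at 0.854 (0.655 to 1.11, adjusted p = 0.622).

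Adamts17, a secreted protease linked to fibrillin, was the only member whose FG-3149 and IgG libraries did not overlap, 2.63% of the 38 against 3.14% of all tested genes. It had 0.940, 0.917, 1.09, 1.40 and 1.38 CPM with FG-3149, 0.799, 0.676, 0.746, 0.825 and 0.615 with IgG, and 0.874, 0.948 and 0.912 in sham. It was 1.55-fold higher with FG-3149 (1.09 to 2.19, edgeR adjusted p = 0.242). Among the surrounding genes, 16 regulators, 22 other proteases and 19 substrates were tested. Together they gave 1 call between FG-3149 and IgG, where 1.07% of all tested genes were called. The gene called was Bsg (basigin, an inducer of MMPs), which was 1.17-fold higher with FG-3149 (edgeR adjusted p = 0.0212). Of the activated fibroblast markers 2 of 10 fell with FG-3149, Cthrc1 and Mfap5, and of the resting fibroblast markers 1 of 10, Lum. Over all tested genes, 0.156% were called lower. The part of these markers in the fitted values of the family was not tested.

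**Figure D5:**
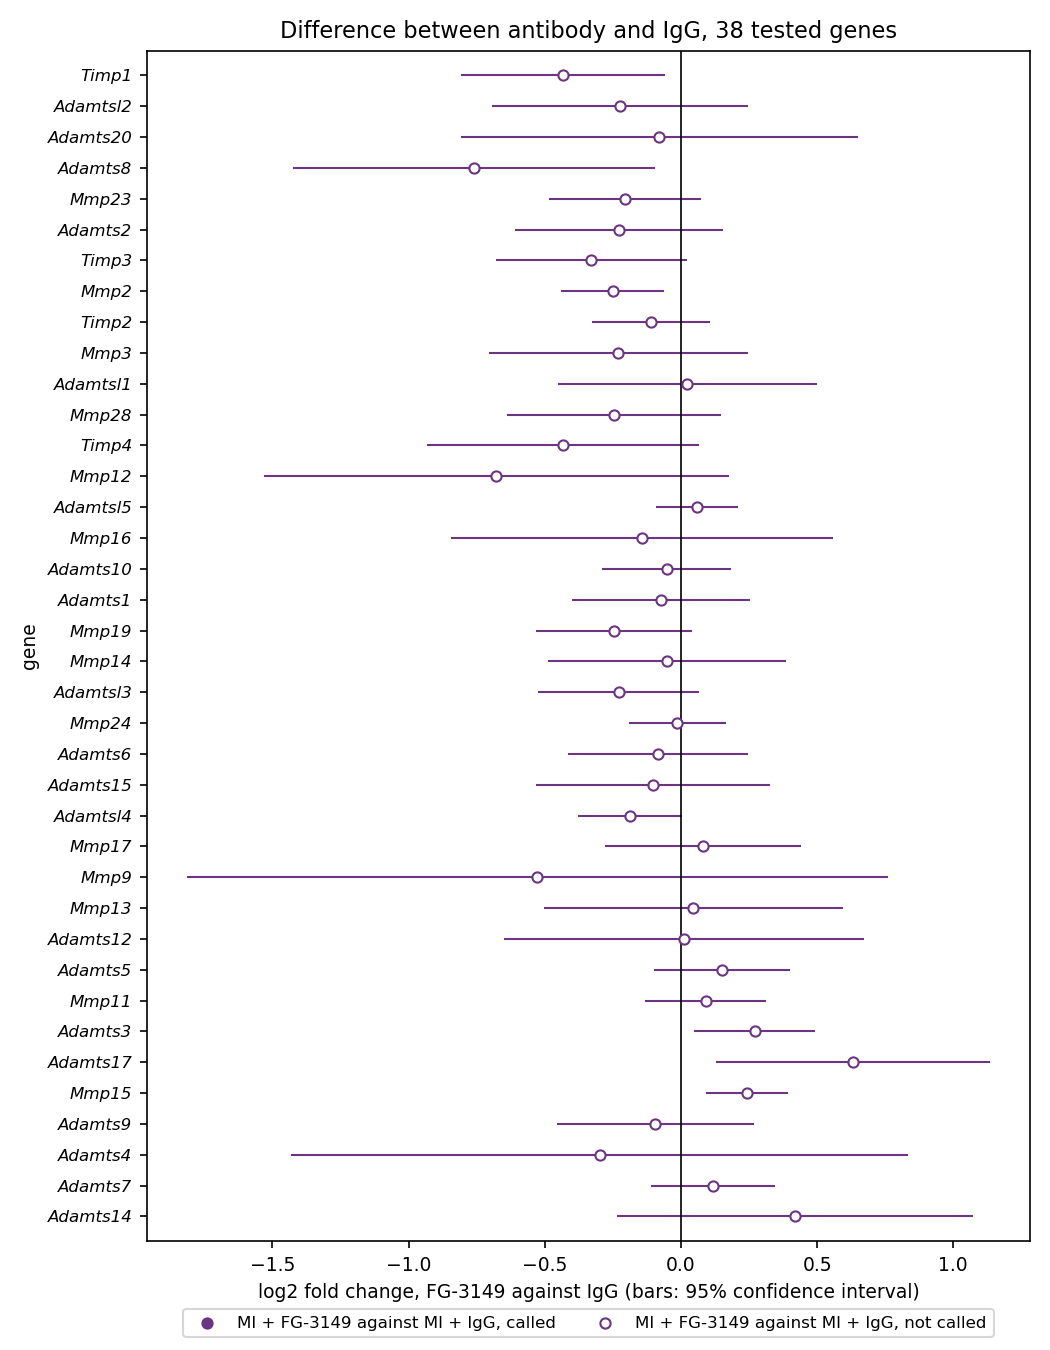
Log2 fold changes between MI with FG-3149 and MI with IgG of the 38 tested family members, with 95% confidence intervals (bars), in the same order as the plot against sham. All points are open, since edgeR called none, and the intervals of 6 members exclude 0.

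The third comparison set FG-3149 against sham and shares its infarcted libraries with the second and its sham libraries with the first. It called 13 of 38 members, 34.2% against 29.5% of all genes, 11 higher (28.9% against 15.6%) and 2 lower (5.26% against 13.9%). The libraries did not overlap in 16 members, 42.1% against 32.2% of all genes. At an unadjusted p under 0.05 there were 17 members, 44.7% against 40.6% of all genes, and the median log2 fold change was 0.23, against -0.00 over all genes. Timp1 was 17.7-fold above sham (10.6 to 29.7, edgeR adjusted p = 3.31e-06), beside 24-fold with IgG. Adamtsl2 was 6.39-fold above sham (edgeR adjusted p = 0.000159), Adamts20 6.56-fold (0.00264), Mmp23 3.29-fold (8.67e-06) and Adamts2 2.5-fold (0.00133). Timp2 was 1.79-fold above sham, Mmp2 1.78-fold and Timp3 1.77-fold, with edgeR adjusted p of 0.000245, 7.04e-05 and 0.00791. Adamtsl5 was 1.48-fold above sham, against 1.42-fold with IgG (edgeR adjusted p = 0.000124 and 0.000197).

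Adamts7 fell by 0.65 on the log2 scale with FG-3149 (SE 0.12, edgeR adjusted p = 0.000885). Adamts9 had 24.3, 26.6, 24.6, 22.1 and 21.8 CPM with FG-3149, all below the sham values of 35.7 to 35.8, and fell by 0.58 (adjusted p = 0.0350 in edgeR), a call lost in 8 settings with adjusted p of 0.0563 to 0.0905. Adamts8 was 2.76-fold above sham (edgeR adjusted p = 0.0268), lost without sham replicate 1 (0.117), sham replicate 2 (0.0579) or FG-3149 replicate 5 (0.0574) and in limma on log2(RPKM + 1) (0.0719). Adamts10 was 1.36-fold above sham (edgeR adjusted p = 0.0206), lost without sham replicate 1 (0.0938) or 2 (0.0600). Mmp15, called lower with IgG, did not pass with FG-3149 (log2 -0.19, SE 0.08, edgeR adjusted p = 0.0837), although without FG-3149 replicate 3 it did (0.00748). Adamts14 did not pass either (log2 -0.84, SE 0.32, edgeR adjusted p = 0.0581), while all 5 FG-3149 libraries lay below sham. It was called lower without FG-3149 replicate 1 (0.0264) or replicate 2 (0.0368), with the 2 groups alone (0.0420) and in limma on log2(RPKM + 1) (0.0417). Mmp3, Mmp19 and Mmp28, called with IgG, were not called with FG-3149, although Mmp3 passed with the 2 groups alone (edgeR adjusted p = 0.0407). The direct comparison of the antibody with IgG gave no call for any of these 5 genes with all libraries.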

How the data were processed

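RNA from 13 mouse left ventricles (3 sham, 5 MI with IgG, 5 MI with FG-3149) was sequenced as single reads of 75 bases. From 500 ng of RNA, stranded mRNA libraries were made and run on a shared flow cell, per the labels' protocols. The series' design text speaks of animals, so replicates were treated as separate animals. The deposited files hold estimated counts for genes and exons, which the authors did not normalize, and a table of RPKM values scaled to transcript length and library total. The genome build was mm10, per the submitters' processing notes, and the aligner and counter are not given in the sources used here.

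Gene counts were rounded, 379 entries with a repeated symbol were left out, and 13434 genes passed filterByExpr. All 13 libraries were fitted together in edgeR 4.0.16 (R 4.3.3, TMM factors, robust quasi-likelihood test), with Benjamini-Hochberg adjustment over all tested genes and a threshold of 0.05. The steps were tested on simulated data. Levels are CPM with TMM factors. Standard errors are the log2 fold change divided by the root of the F statistic, and intervals are unadjusted 95% confidence intervals. Deposited RPKM values were used for levels between genes and, with a pseudocount of 1 or 0.1, in limma 3.58.1. DESeq2 1.42.0, another scaling, other filters, pairwise fits, a replicate block and leaving out each library were the alternatives. Any tested member could be named. The members and lists were chosen with earlier results of these data known. Same-numbered replicates did not deviate together (correlations -0.042 to 0.178), so the numbers were not taken to pair samples. Counting error of the deposited counts is the only error that the floor of 3 counts covers.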

Additional observations from a re-analysis of the deposited data

Results flagged for a closer look

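In groups of 5 libraries, 7 of 76 checks found a library whose gap to its nearest neighbour was over 0.71 of the group's range (Dixon's 95% limit), where chance gives about 1 in 20. In IgG replicate 2, Adamts2 was at 66.44 CPM against 34.63 to 40.54 in the other IgG libraries, Adamtsl3 at 19.59 CPM against 11.70 to 13.06, and Mmp3 at 13.85 CPM against 6.481 to 8.604. In IgG replicate 1, Mmp9 was at 4.792 CPM against 0.4609 to 1.237. In IgG replicate 3, Adamts1 was at 81.03 CPM against 64.61 to 65.85. In IgG replicate 5, Adamts15 was at 24.58 CPM against 12.27 to 14.73. In FG-3149 replicate 5, Adamts7 was at 39.44 CPM against 29.41 to 31.91. Without IgG replicate 2, 19 members were called against sham, 14 higher and 5 lower.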

How the results depend on the processing

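Of the 17 members called with IgG against sham, 13 were called in every setting that tested them, and Adamts10, Mmp3, Mmp19 and Mmp28 were lost in some. Among those 13, Adamts14 and Adamts20 were not tested under the filter on a mean log2 CPM of at least 1. Of the 21 not called, 9 passed in some settings: Adamts1, Adamts3, Adamts9, Adamtsl1, Adamtsl3, Mmp9, Mmp14, Mmp24 and Timp4. Leaving out a library gave 13 to 20 calls, and 5 lower in place of 3 without IgG replicate 1 or 2. Between FG-3149 and IgG it gave 0 to 1 calls, the 1 being Mmp15 without IgG replicate 1. All genes gave 68 to 271 calls there, beside 144 with all libraries, 281 in DESeq2 and 83 with the 2 groups alone. Against sham, FG-3149 gave 10 to 14 calls, with Adamts8, Adamts9 and Adamts10 lost and Adamts1, Adamts14, Adamtsl1, Mmp3, Mmp14 and Mmp15 gained in some settings. No called member changed direction in any setting, and 29 results that were not called did, so their fold changes are left out of the text. With a replicate block, 20, 0 and 15 members were called in the 3 comparisons. The block gained Adamtsl1 (adjusted p = 0.0416 in edgeR), Adamtsl3 (0.0338) and Mmp14 (0.005) with IgG against sham. With FG-3149 against sham it gained Adamtsl1 (0.0375), Mmp14 (0.0104) and Mmp3 (0.0474) and lost Adamts10 (0.0679). Same-numbered libraries correlated at -0.042 to 0.178, so the block rests on numbers alone. Low counts limit Adamts20, Adamts8, Adamts17 and the sham level of Timp1 most, and the 13 members that were not tested had at most 90 counts in all.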

Other observations

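Within both infarcted groups, Adamts4 and Adamts12 were high in some libraries and low in others, a pattern chosen after their values were seen. Adamts4 was at 2.69 and 4.34 CPM in IgG replicates 1 and 2 and 0.538 to 1.18 in replicates 3 to 5, and at 2.002 to 2.14 in FG-3149 replicates 1 to 3 and 0.651 to 0.976 in replicates 4 and 5. Adamts12 was at 3.19 and 3.998 CPM in IgG replicates 1 and 2 and 1.54 to 2.64 in the others, and at 2.90 to 4.28 in FG-3149 replicates 1 to 3 and 1.30 to 1.38 in replicates 4 and 5. Mmp14 was at 28.8 to 29.8 CPM in FG-3149 replicates 1 to 3 and 17.6 to 22.0 in replicates 4 and 5. Arntl, a core gene of the circadian clock, was at 31.7 to 37.4 CPM in sham, at 15.3 to 15.8 in IgG replicates 1 and 2 and 2.46 to 4.82 in replicates 3 to 5, and at 13.8 to 18.5 in FG-3149 replicates 1 to 3 and 2.77 to 2.98 in replicates 4 and 5, so the libraries divided the same way. The part of Arntl in the levels of the family was not tested. Mmp14 and Arntl were also named after their values were seen, and how many other members divide this way was not counted.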
